A study of Arabidopsis thaliana with 11 samples.

Results

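Gene expression was compared between the endosperm and the embryo of wild-type Arabidopsis thaliana seeds, over 3 pairs of libraries, which are 6 of the 11 libraries of the series. The libraries were chosen by title: those named as endosperm (the pure preparation, not the full one) and as embryo under the same prefix. All seeds were 7 to 9 days old, counted from pollination, and came from crosses of the ecotypes Columbia-0 (Col) and Landsberg (Ler), with wild-type mothers and fathers. The first pair is a Col × Ler cross (mother first) whose titles carry "LCM", the second is a Col × Ler cross and the third is the reciprocal Ler × Col cross. Values below are always given in that order. "LCM" is the usual abbreviation of laser capture microdissection, but the protocol text of those libraries describes the same dissection by hand under a microscope, in which embryos were washed and endosperm was pulled from the seed coat. The seeds spanned the torpedo to early maturation stages, and the labels do not say how many went into a library. Only reads that tell Col from Ler were deposited, and the reads of both alleles were summed for each gene.

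The endosperm is the product of the second fertilization of flowering plants and carries a double dose of the maternal genome. It takes up sucrose, amino acids and nitrate from the mother plant, passes them to the embryo, and in Arabidopsis is largely consumed as the embryo grows, leaving a single cell layer in the mature seed. The embryo at these stages has set up its root and shoot poles, its vascular strands and its epidermis, greens, and begins to fill its cotyledons with storage protein and oil. Endosperm and embryo lie against each other inside the maternal seed coat, and each produces signals that shape the other.

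Pure endosperm held 358142, 2700162 and 2840412 allele-assigned reads, and embryo held 607800, 2446825 and 808102, so the LCM-titled endosperm library was the least precise. The maternal share of all reads was between 66.9% and 69.5% in endosperm and between 49.4% and 52.9% in embryo. Levels are given as CPM, the usual depth-scaled read count, with library sizes adjusted by TMM. The summed level of 20 endosperm regulators and markers was 16488, 110479 and 186561 CPM in endosperm and 59.0, 1296 and 8873 CPM in embryo, and 40 embryo patterning regulators summed to 654, 1329 and 1067 CPM in endosperm and 3933, 4509 and 4710 CPM in embryo. EPR1 (AT2G27380), an extensin-like gene of the endosperm wall with similar neighbours, makes up most of the first sum. Both groups were therefore apart for both lists. The summed level of 11 heat shock genes set the LCM-titled pair apart from the others, and within each pair it was higher in endosperm. It was 491 CPM in endosperm and 330 CPM in embryo of the LCM-titled pair. In the Col × Ler pair it was 82350 and 29518 CPM, and in the Ler × Col pair 113725 and 57878 CPM. Of the 11, 6 had a read, and HSP17.4 (AT3G46230) makes up most of the sums of the Col × Ler and Ler × Col pairs. It took 0%, 5.10% and 6.43% of endosperm reads and 0.00132%, 1.97% and 4.15% of embryo reads. The part of heat shock genes in the tissue differences was not tested. In dissected tissue a smaller number of cells of a type and a lower level per cell cannot be told apart.

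**Figure D1:**
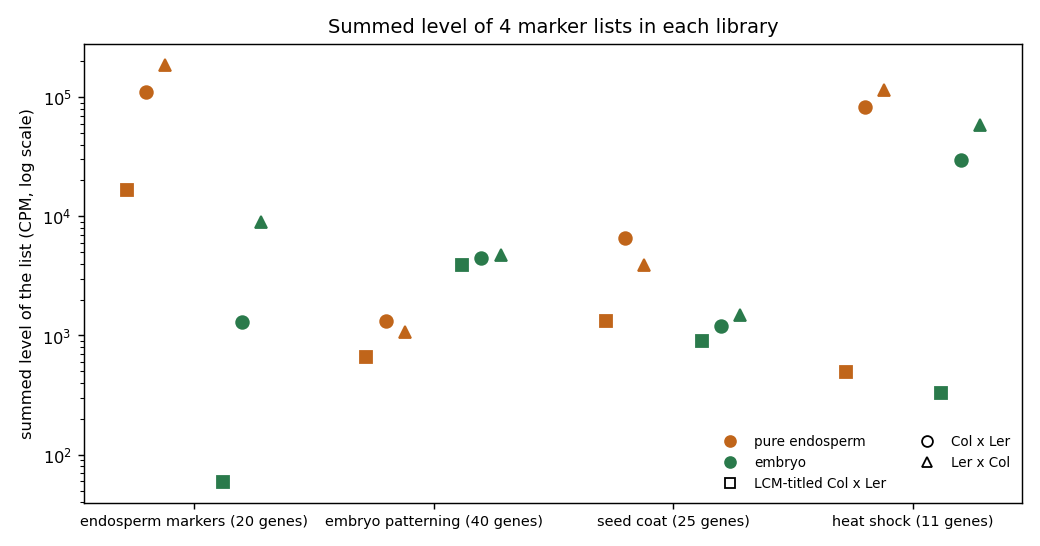
Summed level in CPM (log scale) of 4 marker lists in each of the 6 libraries, with orange for pure endosperm, green for embryo, and squares, circles and triangles for the LCM-titled Col × Ler, the Col × Ler and the Ler × Col pair. Endosperm markers sat between 16488 and 186561 CPM in endosperm and between 59.0 and 8873 CPM in embryo, while heat shock genes were low in both libraries of the LCM-titled pair and high in the other 4.

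The tissues differed at 27.2% of the genes tested, in close to equal numbers but not by equal folds. Of 7329 genes tested with edgeR's quasi-likelihood test, with the title prefix as a block, 1001 were higher in endosperm (13.7%) and 991 were higher in embryo (13.5%) at a Benjamini-Hochberg adjusted p under 0.05. The median log2 fold change of endosperm over embryo was 2.61 among the genes called higher in endosperm and -1.89 among those called higher in embryo. At least 8-fold differences were found for 424 genes in the direction of endosperm and for 198 in that of embryo, and at least 32-fold differences for 125 and 11. All 3 pairs pointed the same way for 968 of the endosperm genes and 988 of the embryo genes. Every endosperm library lay above every embryo library for 848 of the 1001 genes, beside 18.7% of all genes tested, and the reverse held for 867 of the 991, beside 21.2%. Scaling by library totals alone, without TMM factors, moved the median log2 of all genes from -0.05 to -0.49 and the calls to 753 and 1852, so a modest difference in either direction is relative to the bulk of genes and not an absolute amount. Without the LCM-titled pair 1619 and 1437 genes were called, without the Col × Ler pair 513 and 417, and without the Ler × Col pair 830 and 760. Of 6 tested heat shock genes 1 was higher in endosperm and 0 in embryo, beside 13.7% and 13.5% of all genes. Without the LCM-titled pair the numbers were 3 and 0 of 6, beside 1619 and 1437 of 8325 genes.

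**Figure D2:**
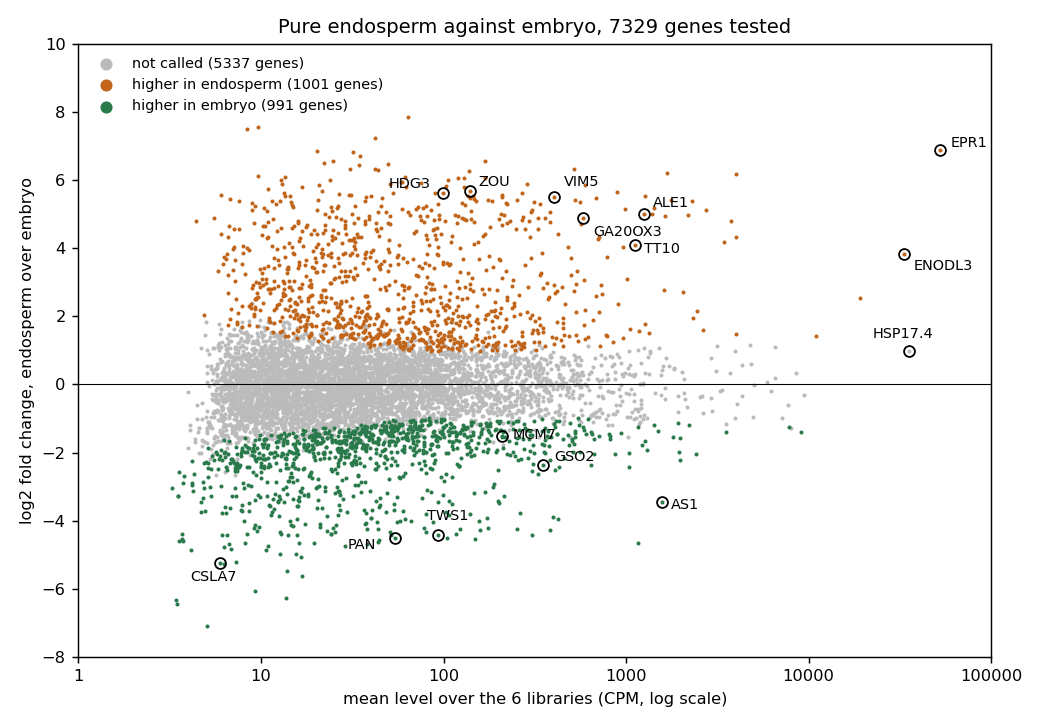
Log2 fold change of endosperm over embryo against the mean level over the 6 libraries (CPM, log scale) for the 7329 genes tested, in orange for the 1001 called higher in endosperm, in green for the 991 called higher in embryo and in grey for the rest, with some genes of the text circled. Orange points reach farther from 0 than green ones: 125 genes were at least 32-fold higher in endosperm and 11 in embryo.

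**Figure D3:**
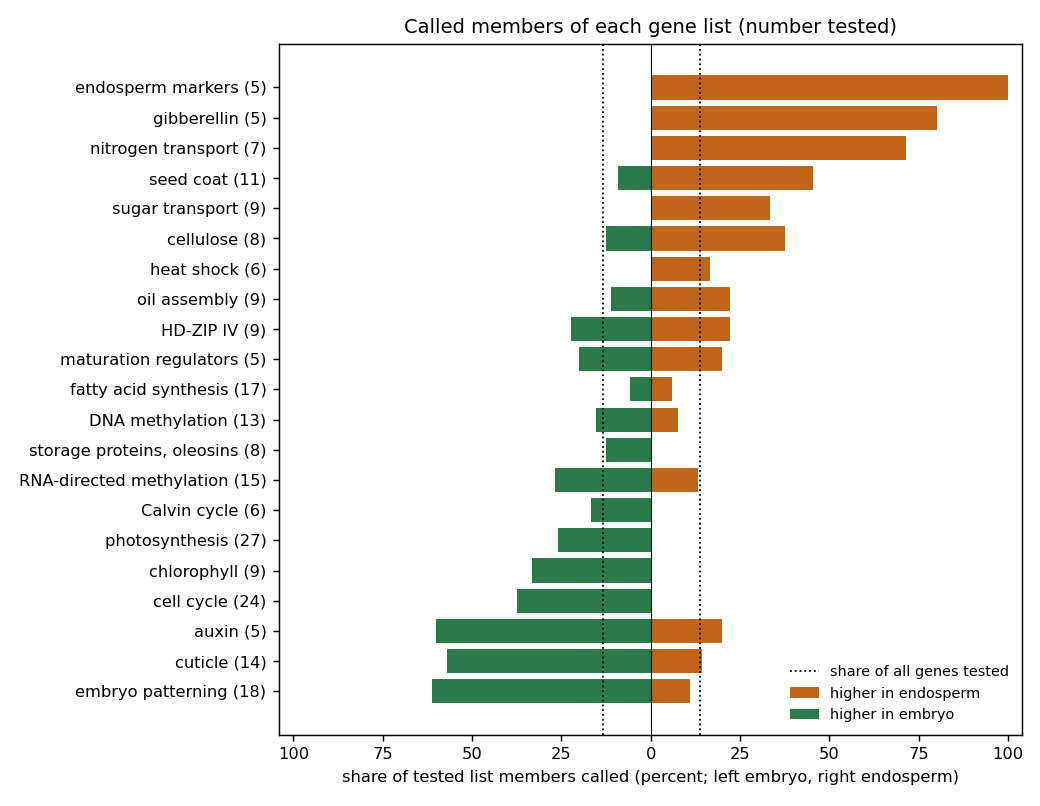
Share of the tested members of each gene list (number tested in brackets, lists with at least 5) called higher in endosperm, to the right in orange, or in embryo, to the left in green, in percent. Dotted lines mark the shares over all genes tested, 13.7% and 13.5%. All 5 tested endosperm markers were called in endosperm, and embryo patterning, auxin and cuticle genes have the longest bars towards embryo.

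The 15 endosperm genes with the smallest p-values and the same sign in all 3 pairs encode proteins of many kinds. C/VIF1, an inhibitor of the invertases that cleave sucrose, had 682, 197 and 127 CPM in endosperm and 2.41, 3.80 and 1.21 CPM in embryo. Each endosperm library was above each embryo library, with a log2 fold change of 6.56 ± 0.54 (SE, adjusted p = 0.000275). AT5G38170, of the lipid-transfer and 2S albumin superfamily, had 6299, 5097 and 4492 CPM in endosperm and 169, 129 and 156 CPM in embryo, and the similar gene AT5G38160 had 664, 2120 and 2916 CPM in endosperm and 10.8, 66.8 and 105 CPM in embryo. Their log2 fold changes were 5.13 ± 0.43 and 5.16 ± 0.44, with the caution that reads of similar neighbouring genes may be split between them. They do not stand for their superfamily, of which 11 genes were tested. By product text, 3 of these were higher in endosperm and 6 in embryo, with a median log2 of -2.88. CEP1, a cysteine endopeptidase known for its work in dying plant tissue, had 315, 331 and 519 CPM in endosperm and 4.82, 14.8 and 21.7 CPM in embryo. The groups did not overlap, and CEP1 was higher in endosperm by a log2 fold change of 4.86 ± 0.43 (SE, adjusted p = 0.000275). IPT6, of the isopentenyltransferase family that starts cytokinin synthesis, stood at 176, 1428 and 1454 CPM in endosperm and 0, 14.8 and 30.2 CPM in embryo, so that it had no read in the LCM-titled embryo library. Its log2 fold change was 6.34 ± 0.55 (SE, adjusted p = 0.000275). NAT8, a nucleobase-ascorbate transporter family gene (5.51 ± 0.47), UGT84A3, a UDP-glycosyltransferase (4.67 ± 0.40), CCH, a copper chaperone (4.73 ± 0.41), GLP6, a germin-like protein (5.92 ± 0.52), SKS2, of the SKU5-similar family (6.08 ± 0.54), the TPX2 family gene AT3G23090 (5.42 ± 0.43), AT1G23560, of a family of unknown function (4.56 ± 0.40), AT1G64800, annotated as a DNA-binding factor (5.40 ± 0.50), and the extensin-like gene AT5G59170 (6.05 ± 0.52) also rose, each in all 3 pairs, with values given here as log2 fold changes with their SE.

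All 5 tested endosperm markers were higher in endosperm. ZOU (AT1G49770), a bHLH transcription factor needed for endosperm breakdown and for the embryo's surface, had 525, 143 and 153 CPM in endosperm and 1.20, 3.80 and 7.24 CPM in embryo. The endosperm libraries were all above the embryo libraries and the LCM-titled one was the highest, and the log2 fold change was 5.67 ± 0.63 (SE, adjusted p = 0.000357). ALE1 (AT1G62340), a subtilisin-like protease that lies downstream of ZOU and acts on the embryo's cuticle from the endosperm, had 4215, 1276 and 1768 CPM in endosperm and 26.5, 53.9 and 148 CPM in embryo. It too was highest in the LCM-titled endosperm, with a log2 fold change of 5.01 ± 0.71 (SE, adjusted p = 0.000772). EPR1 stood at 11047, 108460 and 183713 CPM in endosperm and 3.61, 1134 and 8560 CPM in embryo, the other way round, with its lowest endosperm value in the LCM-titled library (6.88 ± 1.21 (SE, adjusted p = 0.00237)). Of 20 genes on the list, 9 had no read in any of the 6 libraries and 5 were tested, so most of the classical endosperm regulators could not be read in these tables. With no filter beyond 1 read, 6 of 11 were higher in endosperm, beside 1487 of 15560 genes, and 0 in embryo.

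Genes of gibberellin synthesis were mostly higher in endosperm, and genes of auxin synthesis and transport were called in both directions. Gibberellins are made in a chain of steps in which GA3 (ent-kaurene oxidase) and KAO1 (ent-kaurenoic acid oxidase) act early and the 20-oxidases and 3-oxidases finish the active hormone. GA20OX3 (AT5G07200) had 984, 970.2 and 1404 CPM in endosperm and 18.1, 44.1 and 56.7 CPM in embryo. No library crossed between the groups, and the log2 fold change was 4.90 ± 0.43 (SE, adjusted p = 0.000275). GA3OX4 (AT1G80330), which makes the active form, had 131, 180.3 and 215 CPM in endosperm and 0, 1.90 and 12.1 CPM in embryo, and KAO1 (AT1G05160) had 1441, 758 and 582 CPM in endosperm and 37.3, 61.5 and 109 CPM in embryo. Both were apart in all 3 pairs, with log2 fold changes of 5.62 ± 0.64 (SE, adjusted p = 0.000359) and 3.72 ± 0.55 (SE, adjusted p = 0.000926). GA3 (AT5G25900) was present in both tissues, at 698, 825 and 1059 CPM in endosperm and 148, 223 and 221 CPM in embryo, and was higher in endosperm by 2.13 ± 0.34 (SE, adjusted p = 0.00133). GA1, the first enzyme of the pathway, had a log2 fold change of 1.83 (adjusted p = 0.0574). Thus 4 of 5 tested genes of a list of 16 rose in endosperm and 0 in embryo, beside 13.7% of all genes, with a median log2 of 3.72 beside -0.05 over all genes tested. The filter on low counts can pass a gene on its level in 1 tissue alone. With no filter beyond 1 read, 5 of 9 were higher in endosperm, beside 1487 of 15560 genes, and 0 in embryo, with a median log2 of 2.08. GA2OX4, a gene of gibberellin breakdown, had at least 3 reads in each embryo library and 0 in each endosperm library. The list's summed level was 3265, 2767 and 3304 CPM in endosperm and 223, 344 and 405 CPM in embryo.

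Of 5 tested genes of auxin synthesis and transport, 3 were higher in embryo, beside 13.5% of all genes, and 1 in endosperm. With no filter beyond 1 read, 3 of 16 were higher in embryo and 2 in endosperm, beside 1403 and 1487 of 15560 genes. The influx carriers LAX1 (AT5G01240) and LAX2 (AT2G21050) had 0, 3.26 and 1.97 CPM in endosperm and 37.3, 47.5 and 55.5 CPM in embryo, and 0, 7.92 and 2.47 CPM in endosperm and 66.2, 66.8 and 79.6 CPM in embryo. Both had no read in the LCM-titled endosperm and were higher in embryo (-4.40 ± 0.56 (SE, adjusted p = 0.000527) and -4.10 ± 0.59 (SE, adjusted p = 0.000831)). TAR2 (AT4G24670), an aminotransferase of auxin synthesis, followed the same direction (-3.63 ± 0.68 (SE, adjusted p = 0.00323)). AUX1 (AT2G38120), an influx carrier of the same family as LAX1 and LAX2, went the other way with 131, 72.2 and 113 CPM in endosperm and 10.8, 11.8 and 16.9 CPM in embryo (2.92 ± 0.39 (SE, adjusted p = 0.000605)). PIN7 was not called, at -0.90 (adjusted p = 0.204). Among the other hormones few genes were measured. CKX6, a cytokinin oxidase, was the only tested gene of a list of 22 for cytokinin and was higher in embryo, with 0, 5.13 and 3.46 CPM in endosperm and 20.5, 22.8 and 9.65 CPM in embryo (-2.19 ± 0.61 (SE, adjusted p = 0.0231)). CKX3, of the same family, had at least 3 reads in each endosperm library and 0 in each embryo library. With no filter beyond 1 read, 1 of 9 cytokinin genes was higher in each tissue, and 1 of 8 abscisic acid genes. Beside these stand 1487 and 1403 of 15560 genes. CYP707A3, which breaks down abscisic acid, was higher in embryo (-1.88 ± 0.55 (SE, adjusted p = 0.0303)), while ABA2 and ABA3, enzymes of its synthesis, were not called, at -0.79 (adjusted p = 0.102) and 1.5 (adjusted p = 0.0561). With DESeq2 the adjusted p was 0.0856 for CYP707A3 and without the Ler × Col pair the adjusted p was 0.249 for CYP707A3. CKX6 could not be tested without the Col × Ler pair. IPT6, which starts cytokinin synthesis and is not on that list, went the other way, with the endosperm values given above.

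**Figure D4:**
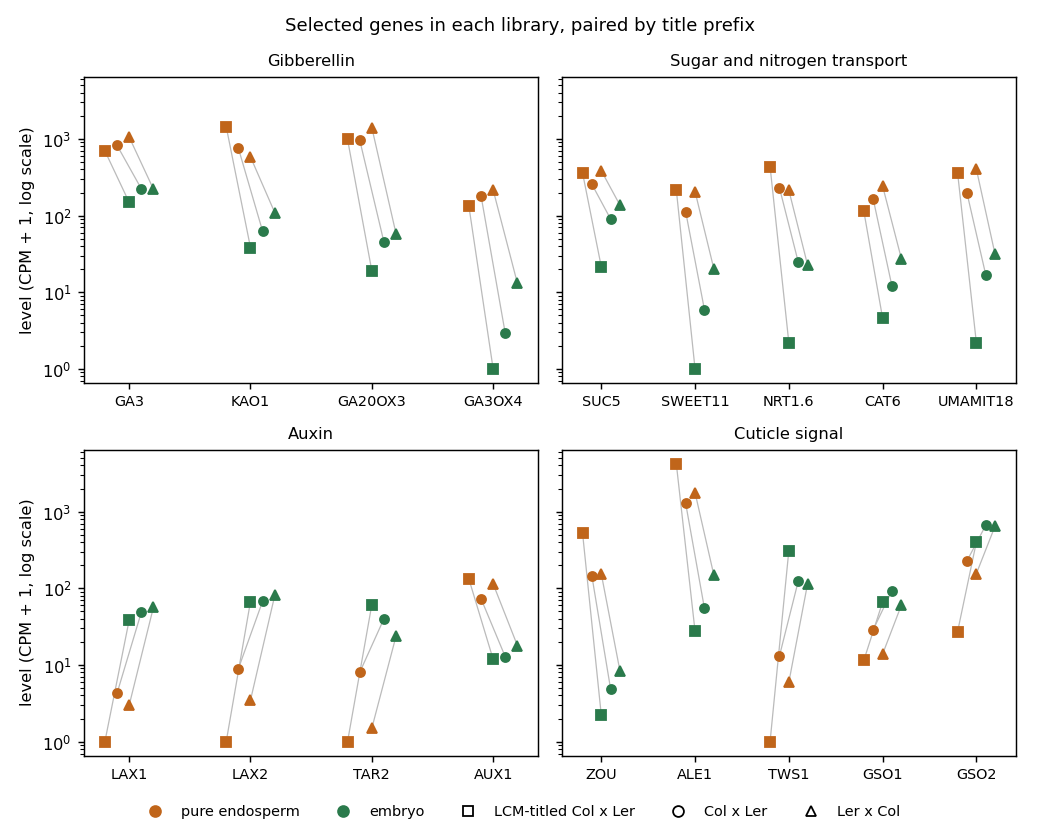
Level (CPM + 1, log scale) of genes of gibberellin synthesis, of sugar and nitrogen transport, of auxin transport and synthesis and of the cuticle signal in every library. Orange is pure endosperm and green is embryo, grey lines join the libraries of 1 pair, and squares, circles and triangles are the LCM-titled Col × Ler, the Col × Ler and the Ler × Col pair. Every line falls from endosperm to embryo for the 4 gibberellin genes, the 5 transporters, AUX1, ZOU and ALE1, and rises for the others.

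Several transporters of sugars and nitrogen were higher in endosperm. SWEET11 (AT3G48740), a sucrose exporter, had 215, 111 and 205 CPM in endosperm and 0, 4.94 and 19.3 CPM in embryo, and SUC5 (AT1G71890), a sucrose importer of the endosperm, had 359.6, 255 and 384 CPM in endosperm and 20.5, 88.9 and 135 CPM in embryo. Neither overlapped between the tissues, with log2 fold changes of 4.60 ± 0.65 (SE, adjusted p = 0.000806) and 2.24 ± 0.52 (SE, adjusted p = 0.0102). SUS1 (AT5G20830), a sucrose synthase that cleaves sucrose, had 879, 432 and 675 CPM in endosperm and 1.20, 25.4 and 24.1 CPM in embryo. It was all but missing in the LCM-titled embryo and differed by 5.30 ± 0.73 (SE, adjusted p = 0.000698). In all, 3 of 9 tested genes of sugar transport, sucrose cleavage and starch were higher in endosperm, beside 13.7% of all genes, and 0 in embryo, beside 13.5%. Of the 9, 6 pointed to endosperm in all 3 pairs, beside 28.9% of all genes tested. With no filter beyond 1 read, 5 of 17 were higher in endosperm and 1 in embryo, beside 1487 and 1403 of 15560 genes. The sucrose carriers SUC3 and SUC4 and the starch enzymes APL1, APS1 and PGM1 were not called, with log2 fold changes from -1.06 to 0.71.

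Of 7 tested genes of amino acid, peptide and nitrate transport, 5 were higher in endosperm, beside 13.7% of all genes, and 0 in embryo, beside 13.5%, with a median log2 of 4.17. With no filter beyond 1 read, 5 of 11 were higher in endosperm and 1 in embryo, beside 1487 and 1403 of 15560 genes. NRT1.6 (AT1G27080), a nitrate transporter known from the supply of the young embryo, had 436, 229 and 214 CPM in endosperm and 1.20, 23.9 and 21.7 CPM in embryo. NRT1.7 (AT1G69870), a nitrate transporter of the same family, had 76.1, 263 and 275 CPM in endosperm and 0, 11.01 and 32.6 CPM in embryo. Both were apart in all 3 pairs (4.17 ± 0.70 (SE, adjusted p = 0.00184) and 4.19 ± 0.57 (SE, adjusted p = 0.000679)). The amino acid exporters UMAMIT18 (AT1G44800) and UMAMIT25 (AT1G09380) had 359.6, 196 and 404 CPM in endosperm and 1.20, 16.0 and 30.2 CPM in embryo, and 168, 56.4 and 74.6 CPM in endosperm and 0, 2.66 and 4.83 CPM in embryo. UMAMIT25 had no read in the LCM-titled embryo, and the log2 fold changes were 4.41 ± 0.63 (SE, adjusted p = 0.000806) and 4.94 ± 0.66 (SE, adjusted p = 0.000608). CAT6 (AT5G04770), an amino acid importer, differed by 3.81 ± 0.42 (SE, adjusted p = 0.000357). AAP1, an amino acid permease known for uptake by the embryo, was low in both tissues with 5.25, 5.59 and 8.89 CPM in endosperm and 6.02, 7.60 and 3.62 CPM in embryo and was not called (0.14 (adjusted p = 0.877)). OPT3 was not called either (-1.10 (adjusted p = 0.14)). The summed level of the list was 1213, 971 and 1252 CPM in endosperm and 66.2, 142 and 281 CPM in embryo.

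Wall synthesis and cell death genes were among the endosperm genes. CESA3 (AT5G05170), a cellulose synthase of growing walls, had 1344, 1402 and 1371 CPM in endosperm and 426, 589 and 618 CPM in embryo, CSLA2 (AT5G22740), a mannan synthase, had 176, 38.7 and 60.2 CPM in endosperm and 10.8, 8.74 and 8.44 CPM in embryo, and POM1 (AT1G05850), a chitinase-like protein that acts with cellulose synthesis, had 302, 493 and 594 CPM in endosperm and 59.0, 99.1 and 183 CPM in embryo. All 3 were higher in endosperm, by 1.35 ± 0.34 (SE, adjusted p = 0.0158), 2.93 ± 0.46 (SE, adjusted p = 0.00137) and 2.11 ± 0.34 (SE, adjusted p = 0.00153). CSLA7 (AT2G35650), a mannan synthase required for embryo development, took the opposite direction, with 0, 0 and 0.494 CPM in endosperm and 13.2, 11.01 and 10.9 CPM in embryo (-5.24 ± 0.86 (SE, adjusted p = 0.00157)). Thus mannan synthases of the same family were split between the tissues. ALPHA-VPE (AT2G25940), a vacuolar processing enzyme, had 47.2, 38.2 and 57.3 CPM in endosperm and 0, 1.90 and 3.62 CPM in embryo. Its log2 fold change was 4.55 ± 0.61 (SE, adjusted p = 0.000623), and with CEP1 it made 2 of 3 tested genes of a list of 8 proteases and nucleases, beside 13.7% of all genes, the other being GAMMA-VPE at 1.11 (adjusted p = 0.0856). With no filter beyond 1 read, 2 of 7 were higher in endosperm, beside 1487 of 15560 genes. Some calls depended on the setting: with scaling by library totals only the adjusted p was 0.0653 for CESA3 and without the Col × Ler pair the adjusted p was 0.152 for CESA3. These calls were not kept in every setting: without the Ler × Col pair the adjusted p was 0.0682 for CESA3.

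Families whose members share a symbol were ranked by the share called, among families with at least 8 tested members. Only genes that passed the filter on low counts were ranked, and a gene can pass it on its level in 1 tissue alone. Family members that did not pass were not counted, so the shares are those of the tested members only. The LCR family, small secreted cysteine-rich proteins related to defensins, had the largest share in endosperm. Of its 8 tested members 7 were higher there, beside 13.7% of all genes, and 1 in embryo, beside 13.5%. LCR69 (AT2G02100) had 1501, 983 and 783 CPM in endosperm and 34.9, 67.6 and 25.3 CPM in embryo, and LCR84 (AT2G14365) had 15414, 3545 and 4648 CPM in endosperm and 1.20, 142 and 165 CPM in embryo. The log2 fold changes were 4.71 ± 0.45 (SE, adjusted p = 0.000323) and 6.17 ± 1.30 (SE, adjusted p = 0.0062), and LCR84 was highest in the LCM-titled endosperm. LCR29, LCR39 and LCR49 rose by 4.94 ± 0.65, 5.54 ± 0.71 and 4.93 ± 0.68. LCR68 (AT2G02130) was the exception, with 0, 18.17 and 4.44 CPM in endosperm and 19.3, 74.8 and 94.1 CPM in embryo (-3.17 ± 0.60 (SE, adjusted p = 0.00367)). Not all calls held: with no filter on low counts the adjusted p was 0.393 for LCR84.

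Early nodulin-like proteins (ENODL), copper-protein relatives anchored at the plasma membrane, followed with 5 of 9 higher in endosperm, beside the same 13.7%, and 1 in embryo (11.1%), beside 13.5%. ENODL3 (AT4G28365) had 140728, 25685 and 24649 CPM in endosperm and 4053, 2627 and 2728 CPM in embryo. It took 14.97% of all reads of the LCM-titled endosperm library, and differed by 3.84 ± 0.58 (SE, adjusted p = 0.00111). ENODL4 (AT4G32490) had 14772, 4443 and 3923 CPM in endosperm and 229, 322 and 398 CPM in embryo, also highest in the LCM-titled endosperm (4.32 ± 0.61 (SE, adjusted p = 0.000764)). ENODL10 and ENODL16 rose by 5.36 ± 0.59 and 4.36 ± 0.55. ENODL13 was higher in embryo, by -1.99 ± 0.44 (SE, adjusted p = 0.00803). Among cytochrome P450 genes (CYP), oxidases of hormones, lipids and defence compounds, 17 of 36 were higher in endosperm (47.2%) and 6 in embryo (16.7%), the second share being near the 13.5% of all genes. CYP81D7 (AT2G23190) had 551, 1357 and 2056 CPM in endosperm and 2.41, 34.6 and 85.7 CPM in embryo, and CYP71A25 (AT3G48280) had 953, 285 and 447 CPM in endosperm and 2.41, 7.98 and 13.3 CPM in embryo. Both were apart in all 3 pairs (5.46 ± 0.56 (SE, adjusted p = 0.000326) and 5.88 ± 0.62 (SE, adjusted p = 0.000345)). CYP76G1 and CYP81D2 rose by 4.79 ± 0.55 and 6.32 ± 0.75. CYP81D6, of the same subfamily as CYP81D7, was higher in embryo (-3.36 ± 0.51 (SE, adjusted p = 0.00105)).

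Of 11 tested NAC transcription factors, 5 were higher in endosperm and 1 in embryo, and of 11 ABCG transporters, which export lipids and hormones, 5 were higher in endosperm and 2 in embryo. In endosperm that is 45.5% of either family, beside 13.7% of all genes, and in embryo 9.09% and 18.18%, near the 13.5% of all genes. NAC075 (AT4G29230) had 1092, 2394 and 3810 CPM in endosperm and 2.41, 55.5 and 232 CPM in embryo, and the gene named NAC2 here (AT3G15510) had 564, 502 and 413 CPM in endosperm and 1.20, 17.9 and 16.9 CPM in embryo. Both were apart from embryo, by 5.54 ± 0.73 (SE, adjusted p = 0.000608) and 5.41 ± 0.62 (SE, adjusted p = 0.000359). NAC019 and NAC099 rose by 4.29 ± 0.61 and 3.40 ± 0.66, whereas NAC094 was higher in embryo (-3.31 ± 0.62 (SE, adjusted p = 0.00321)). ABCG25 (AT1G71960), an exporter of abscisic acid, had 129, 346 and 363 CPM in endosperm and 24.1, 71.0 and 177 CPM in embryo, and ABCG31 (AT2G29940) had 26.2, 31.2 and 28.6 CPM in endosperm and 0, 1.90 and 7.24 CPM in embryo. The log2 fold changes were 1.88 ± 0.39 (SE, adjusted p = 0.00585) and 3.41 ± 0.68 (SE, adjusted p = 0.00454), and ABCG24 and ABCG38 rose by 3.74 ± 0.45 and 5.02 ± 0.72. ABCG8 was among the embryo genes, with 0, 5.13 and 1.97 CPM in endosperm and 47.0, 66.5 and 107 CPM in embryo (-4.68 ± 0.59 (SE, adjusted p = 0.000515)). By setting, without the Col × Ler pair the adjusted p was 0.0782 for ABCG25.

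The embryo libraries carried the transcription factors of vascular, root and leaf patterning. Of 40 genes on the list, 8 had no read in any of the 6 libraries and 18 were tested. Of these, 11 were higher in embryo, beside 13.5% of all genes, and 2 in endosperm, with a median log2 of -2.19. With no filter beyond 1 read, 13 of 32 were higher in embryo and 2 in endosperm, beside 1403 and 1487 of 15560 genes. ATHB15 (AT1G52150) and ATHB8 (AT4G32880), homeobox factors of the vascular strands, had 15.7, 25.2 and 7.90 CPM in endosperm and 197, 175 and 141 CPM in embryo, and 0, 2.80 and 1.97 CPM in endosperm and 30.1, 23.5 and 21.7 CPM in embryo. Both groups were apart, by -3.46 ± 0.41 (SE, adjusted p = 0.000375) and -3.46 ± 0.60 (SE, adjusted p = 0.00207). TMO5 (AT3G25710), a bHLH factor that drives division of vascular cells, had 0, 0 and 0.494 CPM in endosperm and 7.23, 8.74 and 8.44 CPM in embryo, so its 3 endosperm libraries held 0 or close to 0. The log2 fold change was -4.85 ± 0.89 (SE, adjusted p = 0.00294).

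Root pole regulators showed the same direction. SHR (AT4G37650), a mobile factor of the root's inner layers, had 0, 4.66 and 4.44 CPM in endosperm and 136, 75.2 and 37.4 CPM in embryo, and its partner SCR (AT3G54220) had 57.7, 123 and 107 CPM in endosperm and 515, 392 and 394 CPM in embryo. SHR was without a read in the LCM-titled endosperm, while SCR was measured in every endosperm library, and they differed by -4.03 ± 0.59 (SE, adjusted p = 0.000915) and -2.18 ± 0.39 (SE, adjusted p = 0.00272). JKD (AT5G03150), a zinc finger factor that acts with them, had 0, 1.40 and 0.987 CPM in endosperm and 36.1, 27.0 and 19.3 CPM in embryo (-4.43 ± 0.63 (SE, adjusted p = 0.000764)). BBM (AT5G17430), an AP2 factor that promotes embryo identity, had 0, 0.932 and 0 CPM in endosperm and 18.1, 11.8 and 8.44 CPM in embryo, and differed by -4.42 ± 0.80 (SE, adjusted p = 0.00276). AS1 (AT2G37630), a MYB factor of cotyledons and leaves, had 31.5, 655 and 449.8 CPM in endosperm and 1986, 3047 and 3275 CPM in embryo, and YAB3 (AT4G00180), of the abaxial side of leaves, had 0, 0.932 and 1.48 CPM in endosperm and 27.7, 24.3 and 22.9 CPM in embryo. Neither overlapped between the tissues (-3.45 ± 0.67 (SE, adjusted p = 0.00402) and -4.41 ± 0.64 (SE, adjusted p = 0.000824)).

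Both list members that were higher in endosperm are homeobox genes. WOX8 (AT5G45980), known from the basal cell lineage of the young embryo, had 105, 38.7 and 15.3 CPM in endosperm and 1.20, 1.14 and 0 CPM in embryo. It was near 0 in each embryo library and highest in the LCM-titled endosperm, with a log2 fold change of 5.58 ± 0.63 (SE, adjusted p = 0.000357), and it could not be tested without the Col × Ler pair. REV (AT5G60690), which belongs to the family of ATHB8 and ATHB15, had 89.2, 57.8 and 81.5 CPM in endosperm and 42.1, 20.9 and 33.8 CPM in embryo, apart in all pairs but by a smaller step (1.28 ± 0.34 (SE, adjusted p = 0.0203)). PHV, the other member of that family that was tested, was not called (-0.23 (adjusted p = 0.701)), so the family did not move as one. BDL, TPL, GN and PLT3 were not called, with log2 fold changes of -0.62 (adjusted p = 0.195), -1.32 (adjusted p = 0.0648), 0.43 (adjusted p = 0.451) and 0.27 (adjusted p = 0.637). With scaling by library totals only the adjusted p was 0.0856 for REV and without the Col × Ler pair the adjusted p was 0.217 for REV. Some calls depended on the setting: without the Ler × Col pair the adjusted p was 0.11 for REV.

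The smallest p-values in the direction of embryo were spread over regulators, peptides, channels and surface enzymes. PAN (AT1G68640), a bZIP factor known from flowers, had 2.62, 4.66 and 2.96 CPM in endosperm and 166, 72.5 and 76.0 CPM in embryo. Every embryo library was above every endosperm library, with a log2 fold change of -4.52 ± 0.47 (SE, adjusted p = 0.000326). CLE41 (AT3G24770), a peptide that keeps vascular stem cells from differentiating, had 0, 0.932 and 1.48 CPM in endosperm and 13.2, 42.5 and 41.0 CPM in embryo (-5.08 ± 0.61 (SE, adjusted p = 0.000375)). GH9B13 (AT4G02290), a glycosyl hydrolase, had 7.87, 4.19 and 1.48 CPM in endosperm and 139.7, 57.4 and 53.1 CPM in embryo, and AT4G19380, a long-chain fatty alcohol dehydrogenase, had 10.5, 78.8 and 37.5 CPM in endosperm and 482, 772 and 930.1 CPM in embryo. They differed by -4.24 ± 0.47 (SE, adjusted p = 0.000357) and -4.29 ± 0.48 (SE, adjusted p = 0.000357). AT5G44310, a late embryogenesis abundant protein, had 0, 17.2 and 18.3 CPM in endosperm and 1.20, 339.6 and 518 CPM in embryo. Its level in the LCM-titled embryo lay under that of 2 endosperm libraries, so the groups overlapped although each pair pointed to embryo (-4.55 ± 0.45 (SE, adjusted p = 0.000323)). The aspartyl protease gene AT1G09750 (-3.93 ± 0.40), the defensin-like gene AT4G22235 (-3.79 ± 0.42), the pectin lyase-like gene AT4G13210 (-4.75 ± 0.54), the receptor-like kinase gene AT1G60630 (-4.04 ± 0.47), AT1G31950, of the terpenoid cyclase superfamily (-4.23 ± 0.51), and the formin gene AT5G48360 (-3.75 ± 0.44) were higher in embryo in all 3 pairs, given as log2 fold changes with their SE.

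Symbols that start with PIP, which join plasma membrane aquaporins with PIP5K9, a lipid kinase, and other genes, had 4 of 8 tested members higher in embryo, beside 13.5% of all genes, and 1 in endosperm (12.5%), near the 13.7% of all genes. PIP3 (AT4G35100) had 2.62, 7.46 and 2.96 CPM in endosperm and 109.6, 99.1 and 83.2 CPM in embryo, and PIP2;8 (AT2G16850) had 5.25, 27.5 and 14.8 CPM in endosperm and 384, 251 and 156 CPM in embryo. No library of either channel overlapped between the tissues, with log2 fold changes of -4.32 ± 0.46 (SE, adjusted p = 0.000345) and -3.81 ± 0.50 (SE, adjusted p = 0.000607). PIP1;4 and PIP5K9 were higher in embryo by log2 fold changes of -2.32 ± 0.46 and -2.70 ± 0.35. PIP2A (AT3G53420), another aquaporin, was higher in endosperm, with 52.5, 119 and 90.4 CPM in endosperm and 13.2, 30.4 and 44.6 CPM in embryo (1.63 ± 0.38 (SE, adjusted p = 0.0101)). Its adjusted p was 0.15 without the Col × Ler pair and 0.0619 without the block. Of 18 tested MYB factors, 6 were higher in embryo (33.3%), beside 13.5% of all genes, and 4 in endosperm (22.2%), beside 13.7%. MYB73, MYB53, MYB96 and MYB36 were higher in embryo (-2.38 ± 0.38, -3.14 ± 0.57, -3.03 ± 0.56 and -3.75 ± 0.72), and MYB115, MYB109 and MYB56 were higher in endosperm (5.06 ± 0.61, 2.81 ± 0.37 and 4.85 ± 0.66). MYB36 is known for the root's diffusion barrier, MYB96 for cuticular wax and MYB56 for seed size.

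Several genes that shape the embryo's surface were higher in embryo. In the known signal, the embryo makes a sulfated peptide precursor, TWS1, the endosperm protease ALE1 cleaves it, and the embryo receptors GSO1 and GSO2 perceive the product and keep the cuticle closed. TWS1 (AT5G01075) had 0, 12.1 and 4.94 CPM in endosperm and 308, 122 and 113 CPM in embryo. It had no read in the LCM-titled endosperm and differed by -4.41 ± 0.61 (SE, adjusted p = 0.000731). GSO1 (AT4G20140) had 10.5, 28.0 and 12.8 CPM in endosperm and 65.0, 92.3 and 59.1 CPM in embryo, and GSO2 (AT5G44700) had 26.2, 227 and 154 CPM in endosperm and 399, 662 and 649 CPM in embryo. The receptors were higher in embryo (-2.08 ± 0.39 (SE, adjusted p = 0.00324) and -2.36 ± 0.46 (SE, adjusted p = 0.00431)), opposite to ALE1 and ZOU. Of 14 tested genes of the embryo surface, 8 were higher in embryo, beside 13.5% of all genes, and 2 in endosperm, near the 13.7% of all genes, with a median log2 of -2.06. ACR4, DEK1 and ALE2, kinases and a protease of epidermal identity, were not called (-1.23 (adjusted p = 0.0867), -0.69 (adjusted p = 0.336) and 0.44 (adjusted p = 0.51)).

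Most of the cutin and wax enzymes that were called were higher in embryo. LACS2 (AT1G49430), which activates fatty acids for cutin, had 0, 11.6 and 8.89 CPM in endosperm and 81.9, 109 and 185 CPM in embryo, HTH (AT1G72970), an oxidoreductase of cutin monomers, had 7.87, 5.13 and 2.47 CPM in endosperm and 105, 63.4 and 43.4 CPM in embryo, and LCR (AT2G45970), a P450 that oxidizes fatty acids, had 0, 1.40 and 0.987 CPM in endosperm and 19.3, 11.8 and 18.1 CPM in embryo. None overlapped between the tissues, and the log2 fold changes were -4.01 ± 0.51 (SE, adjusted p = 0.000541), -3.79 ± 0.44 (SE, adjusted p = 0.000375) and -3.71 ± 0.65 (SE, adjusted p = 0.00227). The 3-ketoacyl-CoA synthases (KCS), the condensing enzymes that lengthen fatty acids for wax, had 5 of 9 tested members higher in embryo (55.6%), beside 13.5% of all genes, and 2 in endosperm (22.2%), beside 13.7%. KCS20 (AT5G43760) had 0, 30.3 and 17.8 CPM in endosperm and 214, 373 and 319.7 CPM in embryo, and CER6 (AT1G68530), the main one of stem wax, had 15.7, 60.1 and 45.9 CPM in endosperm and 166, 228 and 198 CPM in embryo. Both were higher in embryo (-4.28 ± 0.54 (SE, adjusted p = 0.000522) and -2.33 ± 0.38 (SE, adjusted p = 0.00165)), as was FDH (-2.04 ± 0.54 (SE, adjusted p = 0.0199)). KCS3 and KCS4 were higher in endosperm (4.69 ± 0.64 (SE, adjusted p = 0.000646) and 2.24 ± 0.46 (SE, adjusted p = 0.00557)). ABCG12, a wax exporter, was higher in endosperm by 1.54 ± 0.48 (SE, adjusted p = 0.04). In the pooled endosperm libraries 99.3% of KCS3 reads and 99.4% of ABCG12 reads carried the maternal allele, and 65.7% of KCS4 reads did, beside a median of 67.7% over all genes tested. These calls were not kept in every setting: with scaling by library totals only the adjusted p was 0.109 for ABCG12 and without the Col × Ler pair the adjusted p was 0.54 for ABCG12. Not all calls held: without the Ler × Col pair the adjusted p was 0.119 for FDH.

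The HD-ZIP IV homeobox family, which sets epidermal identity, had 2 of 9 tested members higher in each tissue, beside 13.7% and 13.5% of all genes. ATML1 (AT4G21750) and PDF2 (AT4G04890), which specify the embryo's outer layer, had 5.25, 26.1 and 18.3 CPM in endosperm and 86.7, 69.5 and 86.9 CPM in embryo, and 36.7, 130.5 and 103 CPM in endosperm and 429.9, 301 and 343 CPM in embryo. Their levels did not overlap, and they were higher in embryo by -2.19 ± 0.46 (SE, adjusted p = 0.00627) and -2.04 ± 0.46 (SE, adjusted p = 0.00884). HDG3 (AT2G32370) and HDG9 (AT5G17320) had 446, 76.4 and 67.6 CPM in endosperm and 0, 3.04 and 3.62 CPM in embryo, and 157, 19.1 and 71.6 CPM in endosperm and 0, 1.14 and 7.24 CPM in embryo. They were higher in endosperm, most in the LCM-titled library (5.62 ± 0.76 (SE, adjusted p = 0.000631) and 4.56 ± 0.73 (SE, adjusted p = 0.00141)). The pooled endosperm reads of HDG9 were 96.7% maternal and those of HDG3 39.9%. Without the genes of a maternal share of 90% or more, 1 of 7 tested members was higher in endosperm and 2 in embryo, and without the LCM-titled pair 4 and 3 of 9 were. Over all genes tested the numbers were 938 and 970 of 7133, and 1619 and 1437 of 8325. HDG5, HDG11, HDG12, ANL2 and GL2 were not called, with log2 fold changes of 0.60, -1.04, -0.92, 0.84 and 0.61.

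Genes of DNA replication were among the embryo calls. Of 24 tested cell cycle genes, 9 were higher in embryo, beside 13.5% of all genes, and 0 in endosperm, and 17 pointed to embryo in all 3 pairs, beside 32.5% of all genes tested. MCM7 (AT4G02060), a subunit of the replicative helicase, had 147, 89.5 and 94.3 CPM in endosperm and 358, 293 and 265 CPM in embryo, and PCNA1 (AT1G07370), the sliding clamp of DNA polymerase, had 18.4, 6.52 and 8.39 CPM in endosperm and 114, 29.2 and 29.0 CPM in embryo. Neither overlapped between the tissues, and they differed by -1.5 ± 0.32 (SE, adjusted p = 0.00692) and -2.17 ± 0.42 (SE, adjusted p = 0.00391). CYCD3;1 (AT4G34160), a cyclin that starts the cycle, had 0, 4.19 and 0.987 CPM in endosperm and 25.3, 17.5 and 24.1 CPM in embryo (-3.21 ± 0.68 (SE, adjusted p = 0.00647)). RNR1, a ribonucleotide reductase subunit, was higher in embryo by -1.37 ± 0.33 (SE, adjusted p = 0.0132). Among genes of mitosis, CYCA1;1 was higher in embryo, with 149.6, 38.2 and 35.1 CPM in endosperm and 235, 122 and 95.3 CPM in embryo, an overlap between the tissues (-1.26 ± 0.35 (SE, adjusted p = 0.0232)). Its adjusted p was 0.304 without the Col × Ler pair, 0.127 without the Ler × Col pair and 0.265 without the block. The mitotic genes CYCB1;4, CYCB2;3, CDKB2;2, CDC20.2 and PLE, a microtubule-bundling protein of the dividing cell, were not called, with log2 fold changes of -0.42, -0.07, 0.10, 0.27 and 0.33. CDC20.2 and CDKB2;2 were highest of all libraries in the LCM-titled endosperm, at 163 and 73.5 CPM. The number of cell cycle genes called higher in embryo was 10 of 25 without the LCM-titled pair, 2 of 19 without the Col × Ler pair and 5 of 27 without the Ler × Col pair. Of all genes tested, 1437 of 8325, 417 of 5592 and 760 of 7618 were called so in these settings. By setting, without the Col × Ler pair the adjusted p was 0.105 for RNR1 and 0.143 for MCM7 and without the Ler × Col pair the adjusted p was 0.0593 for RNR1.

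Many ribosomal protein genes were higher in embryo and almost none in endosperm. Among symbols that start with RPL, 8 of 13 were higher in embryo, beside 13.5% of all genes, and 0 in endosperm, though 1 of these, RPL (AT5G02030), is a homeobox factor, and among those that start with RPS 5 of 10 were higher in embryo and 0 in endosperm, a stem that also holds disease resistance genes. RPL21C (AT1G35680), a protein of the plastid ribosome, had 7.87, 18.6 and 11.8 CPM in endosperm and 51.8, 65.7 and 39.8 CPM in embryo, and RPS9 (AT1G74970) had 44.6, 118 and 67.1 CPM in endosperm and 291, 348 and 144 CPM in embryo. Both were higher in embryo in all pairs, by -1.96 ± 0.42 (SE, adjusted p = 0.0063) and -1.73 ± 0.39 (SE, adjusted p = 0.00889). RPL12-C and RPL27 were higher by -1.78 ± 0.41 and -1.68 ± 0.41 on the log2 scale, in the direction of embryo. When all 144 tested genes whose product names a ribosomal protein were taken, a grouping chosen after the values were seen, 67 were higher in embryo, beside 13.5% of all genes, and 1 in endosperm, AT3G28500, an acidic ribosomal protein with a log2 fold change of 5.87. Their median log2 was -1.18, and 135 lay under 0. They took 2.30%, 2.32% and 1.80% of the reads of the endosperm libraries and 9.92%, 6.80% and 4.14% of those of the embryo libraries. The product text joins proteins of cytosolic, plastid and mitochondrial ribosomes, which were not counted apart. It also takes in some genes of other kinds, such as elongation factors. Of these, LOS1 (AT1G56070) held 1234, 5067 and 4336 of the group's 8244, 62578 and 50994 endosperm reads. In embryo it held 5698, 15629 and 2554 of 60303, 166461 and 33479. Copies of a ribosomal protein are often near identical, so reads may be split between them, and single values are less certain than the sum. Symbols that start with EMB, genes named for embryo-lethal mutants, had 29 of 92 tested members higher in embryo (31.5%), beside 13.5% of all genes, and 1 in endosperm, beside 13.7%. Without the Col × Ler pair the adjusted p was 0.0561 for RPL21C.

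**Figure D5:**
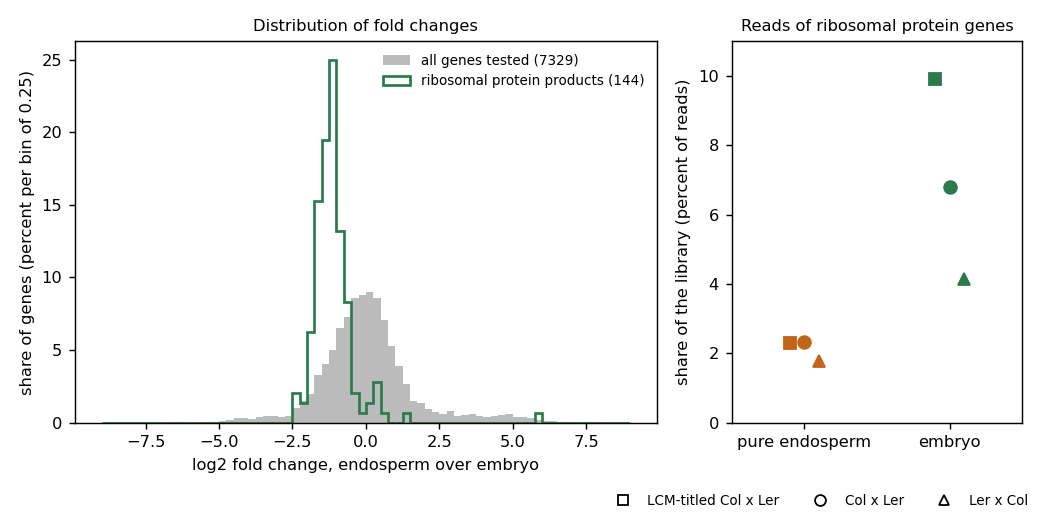
Left, share of genes (percent per bin of 0.25) by log2 fold change of endosperm over embryo, for all 7329 genes tested (grey) and for the 144 whose product names a ribosomal protein (green line). The product text also takes in some genes of other kinds, such as elongation factors. Right, share of each library's reads that fell on those 144 genes, with squares, circles and triangles for the LCM-titled Col × Ler, the Col × Ler and the Ler × Col pair: 1.80% to 2.32% in endosperm and 4.14% to 9.92% in embryo.

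Photosynthesis genes were expressed in both tissues and leaned to the embryo. Of 27 tested genes of photosystems, antennae and electron transport, 7 were higher in embryo, beside 13.5% of all genes, and 0 in endosperm, and all 27 had a log2 fold change under 0, with a median of -0.82. PETE1 (AT1G76100), a plastocyanin, had 44.6, 178 and 83.4 CPM in endosperm and 276, 477 and 428 CPM in embryo. It was the strongest of the list and the groups did not overlap (-2.10 ± 0.37 (SE, adjusted p = 0.00246)). PSBS (AT1G44575), which dissipates excess light, had 383, 383 and 297 CPM in endosperm and 736, 919.5 and 1151 CPM in embryo (-1.39 ± 0.36 (SE, adjusted p = 0.0167)). LHCB1.1, LHCB2.2 and FNR1 had log2 fold changes of -0.03, -0.12 and -0.06, with the caution that the LHCB1 and LHCB2 copies are near identical. Of 9 tested chlorophyll synthesis genes 3 were higher in embryo, beside 13.5% of all genes, and 0 in endosperm, and the first number was 6 of 9 without the LCM-titled pair, 0 without the Col × Ler pair and 1 without the Ler × Col pair. GLK2 (AT5G44190), a factor that builds chloroplasts, had 39.4, 107 and 101.2 CPM in endosperm and 163, 212 and 252 CPM in embryo, and CHLI1 (AT4G18480), of the magnesium chelatase, had 89.2, 58.2 and 46.9 CPM in endosperm and 177, 149.6 and 129 CPM in embryo. Both were apart between tissues (-1.40 ± 0.35 (SE, adjusted p = 0.0147) and -1.28 ± 0.33 (SE, adjusted p = 0.0159)). In the Calvin cycle FBA2, an aldolase, was higher in embryo (-1.40 ± 0.36 (SE, adjusted p = 0.0162)), and PRK, GAPB, SBPASE and HCEF1 were not called. PRK stood at 2184, 1537 and 1076 CPM in endosperm and 1350, 1627 and 1981 CPM in embryo, overlapping between the tissues. The count of photosynthesis genes higher in embryo was 12 of 28 without the LCM-titled pair, 1 of 25 without the Col × Ler pair and 2 of 27 without the Ler × Col pair. Beside these and the chlorophyll counts, 1437 of 8325, 417 of 5592 and 760 of 7618 of all genes tested were higher in embryo. For photosynthesis, only the share without the LCM-titled pair lay above that of all genes. Some calls depended on the setting: without the Col × Ler pair the adjusted p was 0.144 for PSBS, 0.201 for CHLI1, 0.0863 for FBA2 and 0.0774 for GLK2 and without the Ler × Col pair the adjusted p was 0.177 for PSBS and 0.114 for CHLI1.

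Storage protein and oil body genes were abundant in both tissues, with large differences between the pairs. OLEO1 (AT4G25140), the major coat protein of oil bodies, had 121, 7496 and 12361 CPM in endosperm and 1096, 12214 and 14891 CPM in embryo. Both libraries of the LCM-titled pair were low and the other 4 were high, and the tissues overlapped (-1.29 ± 0.59 (SE, adjusted p = 0.135)). CRA1 (AT5G44120), a 12S cruciferin, had 60.4, 1924 and 352 CPM in endosperm and 45.8, 2648 and 2079 CPM in embryo, likewise low in the LCM-titled pair (-0.94 ± 0.56 (SE, adjusted p = 0.24)). OLEO3 had 5921, 7502 and 9878 CPM in endosperm and 4350, 10342 and 18289 CPM in embryo and was not called (-0.31 (adjusted p = 0.638)). AT2G28490, a cupin of the vicilin type, was the 1 member of 8 tested that was called, with 0, 82.5 and 102 CPM in endosperm and 30.1, 300.1 and 680.4 CPM in embryo. Its log2 fold change was -2.52 ± 0.47 (SE, adjusted p = 0.00343), with an overlap between the groups because the LCM-titled embryo was low. The 8 tested members had a median log2 of -0.88, and 4 pointed to embryo in all 3 pairs, beside 32.5% of all genes tested. The 1 called of 8 tested is a share near the 13.5% of all genes. The number of storage genes higher in embryo was 5 of 9 without the LCM-titled pair, 1 of 8 without the Col × Ler pair and 1 of 8 without the Ler × Col pair. Of all genes tested, 1437 of 8325, 417 of 5592 and 760 of 7618 were called so in these settings.

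Promoters of these genes share a short word. The RY motif CATGCA, bound by the maturation factors of the B3 class, was found on either strand in the 250 bases before the annotated gene start of 17 of 19 storage genes (89.5%), beside 8.50% of all 26452 promoters of the RefSeq annotation of TAIR10.1, and in 10.8% and 10.2% of the promoters of the genes called higher in endosperm and in embryo. The promoters of AT2G28490 (chromosome 2, minus strand), OLEO1 (chromosome 4, plus strand) and CRA1 (chromosome 5, minus strand) are given because they show how the motif recurs within a promoter, from 5′ to 3′ in the direction of the gene, from TAIR10.1, with each CATGCA or its reverse complement in capitals.
AT2G28490: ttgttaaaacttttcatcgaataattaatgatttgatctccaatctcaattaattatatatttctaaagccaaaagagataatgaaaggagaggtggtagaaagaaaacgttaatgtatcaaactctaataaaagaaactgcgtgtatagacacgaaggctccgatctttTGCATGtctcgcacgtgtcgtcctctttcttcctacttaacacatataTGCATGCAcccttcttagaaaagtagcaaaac
OLEO1: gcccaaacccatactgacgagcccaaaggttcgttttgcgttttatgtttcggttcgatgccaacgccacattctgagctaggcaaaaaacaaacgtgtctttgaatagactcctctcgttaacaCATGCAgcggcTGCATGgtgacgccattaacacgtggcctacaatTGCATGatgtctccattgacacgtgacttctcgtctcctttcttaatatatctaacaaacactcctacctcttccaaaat
CRA1: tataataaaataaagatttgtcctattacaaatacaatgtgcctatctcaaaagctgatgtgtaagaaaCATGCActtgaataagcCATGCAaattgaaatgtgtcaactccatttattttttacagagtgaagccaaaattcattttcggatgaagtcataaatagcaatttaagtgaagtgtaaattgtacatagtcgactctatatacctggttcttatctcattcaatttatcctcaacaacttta
AT2G28490 holds 3 motif starts, OLEO1 3 and CRA1 2, and in AT2G28490 a pair of them overlaps. A match describes these letters only, and is no measured binding site.

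The other motifs searched were the G-box CACGTG, the MSA core AACGG of mitotic genes, the I-box GATAAG of light-regulated genes and the telo box AAACCCTA of ribosomal protein genes, all on both strands. The G-box was found in 42.1% of storage promoters and 55.6% of those of late embryogenesis genes, beside 6.60% of all promoters. The MSA core was found in 44.4% of cell cycle promoters, beside 20.6%, and the telo box in 13.0% of those of tested RPL and RPS symbols, beside 4.44%. The promoter of CYCA1;1 (AT1G44110, chromosome 1, minus strand, TAIR10.1), the mitotic cyclin described above, whose call was lost without the Col × Ler or the Ler × Col pair, is given as an example, with AACGG or its reverse complement in capitals.
CYCA1;1: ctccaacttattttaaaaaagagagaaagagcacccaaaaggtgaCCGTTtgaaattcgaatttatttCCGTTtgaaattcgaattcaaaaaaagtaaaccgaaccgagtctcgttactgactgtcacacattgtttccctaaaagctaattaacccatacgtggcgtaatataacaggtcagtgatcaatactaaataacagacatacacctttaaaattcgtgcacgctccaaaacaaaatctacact
It holds 2 copies, both as the reverse complement.

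Regulators of maturation were measured in both tissues. ABI3 (AT3G24650), a B3 factor that binds the RY motif, had 31.5, 145 and 191 CPM in endosperm and 238, 333 and 434 CPM in embryo, and was higher in embryo (-1.65 ± 0.41 (SE, adjusted p = 0.0145)). BZIP67 (AT3G44460), a bZIP factor of storage genes, had 118, 331 and 508 CPM in endosperm and 43.4, 112 and 159 CPM in embryo. It was higher in endosperm in every pair (1.57 ± 0.33 (SE, adjusted p = 0.00573)), though the LCM-titled endosperm lay within the range of the embryo libraries. LEC1, FUS3 and BZIP53 were not called (0.97 (adjusted p = 0.116), 0.88 (adjusted p = 0.118) and 0.72 (adjusted p = 0.168)). ECP63 (AT2G36640), the only tested late embryogenesis gene of a list of 9, had 42.0, 265 and 523 CPM in endosperm and 1.20, 17.9 and 29.0 CPM in embryo, and was higher in endosperm by 4.12 ± 0.40 (SE, adjusted p = 0.000323), opposite to AT5G44310 of the same protein class. These calls were not kept in every setting: without the Col × Ler pair the adjusted p was 0.0902 for BZIP67.

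Of 17 tested genes of fatty acid synthesis in plastids 1 was higher in each tissue, beside 13.7% and 13.5% of all genes, but the embryo count depended on the setting. It was 8 of 18 without the LCM-titled pair, 0 of 16 without the Col × Ler pair, 0 of 18 without the Ler × Col pair and 7 of 17 with scaling by library totals only. Over all genes tested it was, in the same order, 1437 of 8325, 417 of 5592, 760 of 7618 and 1852 of 7329. GPT2 (AT1G61800), a plastid importer of glucose 6-phosphate, had 1113, 299 and 437 CPM in endosperm and 107, 48.6 and 32.6 CPM in embryo. It was apart from embryo in all pairs (3.23 ± 0.38 (SE, adjusted p = 0.000375)), while its relative GPT1 was not called (-0.01 (adjusted p = 0.989)). ENO1, the plastid enolase, was called at the threshold in embryo (-1.08 ± 0.36 (SE, adjusted p = 0.0497)). KASI, KASIII, MOD1 and FATA1, of the chain that builds fatty acids, were not called, at -0.52, -0.72, -0.85 and -0.15. In oil assembly ROD1 (AT3G15820), which feeds polyunsaturated fatty acids into oil, had 0, 13.0 and 7.90 CPM in endosperm and 77.1, 125 and 98.9 CPM in embryo, and PDAT2 (AT3G44830), an acyltransferase for oil, had 129, 119 and 269.6 CPM in endosperm and 0, 14.8 and 22.9 CPM in embryo. They went opposite ways, by -3.70 ± 0.50 (SE, adjusted p = 0.000631) and 3.84 ± 0.61 (SE, adjusted p = 0.00134). LACS8 was higher in endosperm (1.51 ± 0.49 (SE, adjusted p = 0.043)), and the desaturase FAD2 was not called (-0.36 (adjusted p = 0.46)). Not all calls held: with DESeq2 the adjusted p was 0.0987 for ENO1 and 0.0516 for LACS8 and with scaling by library totals only the adjusted p was 0.111 for LACS8. By setting, without the Col × Ler pair the adjusted p was 0.284 for ENO1 and 0.355 for LACS8 and without the Ler × Col pair the adjusted p was 0.366 for ENO1 and 0.26 for LACS8.

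Among the chromatin genes that were called, some members of small families went in opposite directions. Of 13 tested genes of DNA methylation and its removal 1 was higher in endosperm and 2 in embryo. Of 15 of RNA-directed DNA methylation the numbers were 2 and 4, beside 13.7% and 13.5% of all genes. The 2 of 13 and the 2 of 15 are shares near these. Without the Col × Ler pair the numbers were 1 and 1 of 11, and 0 and 0 of 11, beside 513 and 417 of 5592 genes. VIM5 (AT1G57800), of the methylcytosine-binding ubiquitin ligase family, had 609, 689 and 1038 CPM in endosperm and 2.41, 15.6 and 48.3 CPM in embryo, and its relative VIM1 (AT1G57820) had 99.7, 94.6 and 118 CPM in endosperm and 601, 397 and 425 CPM in embryo. VIM5 was higher in endosperm and VIM1 in embryo, without overlap (5.52 ± 0.58 (SE, adjusted p = 0.000345) and -2.16 ± 0.34 (SE, adjusted p = 0.00137)), with the caution that reads of these similar genes may be split. CLSY3 (AT1G05490) and CLSY1 (AT3G42670), chromatin remodellers that guide RNA polymerase IV to its targets, had 15.7, 14.4 and 13.8 CPM in endosperm and 3.61, 0.380 and 0 CPM in embryo, and 94.5, 74.6 and 64.2 CPM in endosperm and 27.7, 36.8 and 32.6 CPM in embryo. Both were higher in endosperm (3.86 ± 0.77 (SE, adjusted p = 0.00466) and 1.22 ± 0.36 (SE, adjusted p = 0.0293)), and the other two, CLSY2 and CLSY4, were higher in embryo (-1.84 ± 0.50 (SE, adjusted p = 0.022) and -1.41 ± 0.46 (SE, adjusted p = 0.0448)). AGO4 (AT2G27040), the main Argonaute of the same pathway, had 73.5, 178 and 200.4 CPM in endosperm and 436, 353 and 304 CPM in embryo and was higher in embryo (-1.32 ± 0.42 (SE, adjusted p = 0.0425)), as was IDN2 (-1.33 ± 0.44 (SE, adjusted p = 0.0493)). CMT3, CMT2, DME, ROS1 and DDM1, methyltransferases, demethylases and a remodeller, were not called, with log2 fold changes of -1.07, -0.75, 0.71, 0.34 and -0.22. Of Polycomb genes 3 were tested: SWN, a histone methyltransferase, was higher in endosperm with 34.1, 58.7 and 70.1 CPM in endosperm and 12.04, 17.5 and 20.5 CPM in embryo (1.69 ± 0.39 (SE, adjusted p = 0.00965)), and CLF and VRN2 were not called (-1.01 (adjusted p = 0.106) and -0.08 (adjusted p = 0.89)). No type I MADS gene of a list of 25 passed the filter on low counts, and 15 of them had no read. With DESeq2 the adjusted p was 0.0739 for CLSY4 and with scaling by library totals only the adjusted p was 0.124 for CLSY1. Some calls depended on the setting: without the Col × Ler pair the adjusted p was 0.124 for AGO4, 0.183 for CLSY4, 0.158 for CLSY1, 0.0954 for IDN2 and 0.117 for SWN and without the Ler × Col pair the adjusted p was 0.365 for CLSY4, 0.0818 for CLSY1, 0.0552 for SWN and 0.252 for CLSY2.

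Some seed coat genes were also higher in the endosperm libraries. Of 11 tested pigment and mucilage genes 5 were higher in endosperm, beside 13.7% of all genes, and 1 in embryo, beside 13.5%. The endosperm count was 9 of 13 without the LCM-titled pair, 4 of 9 without the Col × Ler pair, 8 of 14 without the Ler × Col pair, 1 of 6 with at least 10 reads required in each library of a tissue and 3 of 11 without the block. Over all genes tested it was, in the same order, 1619 of 8325, 513 of 5592, 830 of 7618, 830 of 5294 and 719 of 7329. TT10 (AT5G48100), the laccase that browns the seed coat, had 425, 3650 and 2087 CPM in endosperm and 3.61, 212 and 359 CPM in embryo, and TT8 (AT4G09820), a regulator of the pigment pathway, had 18.4, 201 and 95.3 CPM in endosperm and 3.61, 12.2 and 9.65 CPM in embryo. They differed by 4.08 ± 0.67 (SE, adjusted p = 0.00165) and 3.53 ± 0.46 (SE, adjusted p = 0.000586), and BAN and DFR, of the same pathway, by 4.50 ± 0.66 and 4.69 ± 0.62. In the pooled endosperm libraries 99.6% of TT10 reads and 99.8% of TT8 reads carried the maternal allele, beside a median of 67.7% over all genes tested. The whole list summed to 1325, 6617 and 3928 CPM in endosperm and 900, 1209 and 1486 CPM in embryo. Of the 1001 genes called higher in endosperm, 78 (7.79%) had a maternal share of 90% or more there, beside 180 of 7208 genes (2.50%) overall. Leaving out all genes with such a share left 938 and 970 calls. The part of the seed coat genes in other endosperm values was not tested.

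Genes called at least 8-fold higher in 1 tissue were also read in the other library of the pair. The 8-fold cut keeps that level low by itself. Over the 424 genes at least 8-fold higher in endosperm, the summed embryo level was 2.08%, 3.80% and 6.18% of the endosperm level. The medians over genes were 0%, 5.17% and 6.90%. Over the 198 genes at least 8-fold higher in embryo, the summed endosperm level was 1.76%, 13.1% and 6.53% of the embryo level, with medians of 0%, 10.6% and 4.81%. In the embryo libraries, the reads of 370 such endosperm genes with a maternal share under 90% were 48.9%, 59.7% and 63.0% maternal, beside 52.3%, 52.5% and 49.1% for genes that did not differ and 65.9% to 67.2% for the same genes in endosperm. In the endosperm libraries, the reads of 196 embryo genes were 50.5%, 56.3% and 54.2% maternal, beside 67.8%, 69.5% and 66.6% for genes that did not differ, with only 109 reads behind the first value. These shares lie between those of the tissues in the Col × Ler and Ler × Col pairs. Their part in the fold changes of single genes was not tested. Genes with at least 10 reads in each endosperm library and none in any embryo library numbered 7, and the reverse was found for 0 genes. With at least 3 reads in each library the numbers were 53 and 16. These are counts of raw reads, and 0 reads is reached more easily in a shallow library. The shallow ones were the LCM-titled endosperm and embryo (358142 and 607800 reads) and the Ler × Col embryo (808102 reads).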

How the data were processed

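The deposited tables are counts of reads for 28523 genes. Per the readme deposited with them, reads were placed on cDNA models, and a read was counted for the ecotype, Col or Ler, that it matched with fewer mismatches. Bowtie was used, per the submitters' processing notes. Bowtie's version, the gene models, strand use and the handling of multiply matching reads are not stated. Reads that cannot tell the ecotypes apart are missing from the counts, so some genes have no value, and similar or overlapping genes may share reads. A row with a mistyped name held 0 reads and was left out.

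The counts of both alleles were summed. Groups and pairs came from the titles. The labels give no plant of origin for the libraries, so the p-values reflect spread among these libraries alone, and that spread may be technical. Libraries of 1 tissue differed far beyond sampling noise (a chi-square of 13.7 to 59.5 per degree of freedom). Genes passing filterByExpr (minimum count 10, minimum total 15) were fitted with edgeR 4.0.16 (R 4.3.3, TMM, robust quasi-likelihood, title prefix as block) and adjusted by Benjamini-Hochberg over 7329 genes. The prefix pairs the libraries: deviations from the tissue means correlated by 0.43, 0.40 and 0.34 over genes within pairs 1, 2 and 3, and each library resembled its partner most. SE is the log2 fold change over the square root of F. On data simulated for this comparison (6905 genes tested), 100% of genes changed by 3 on the log2 scale in either direction were recovered, and 56% and 50% of those changed by 1.5 and -1.5. Only genes above a minimum mean level were changed, and all genes were drawn at the same dispersion, 0.10. These rates therefore do not cover genes of low level or of larger spread. Alternatives included DESeq2 1.42.0, other scalings and filters, no block, a fold threshold and leaving out each pair.

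Symbols come from the TAIR10.1 gene table (27688 identifiers matched) and promoters from its RefSeq annotation. The build behind the counts is not named, so no coordinates are printed. Members and gene lists were chosen with earlier results of these data known. Genes named in the text are, in each direction, the 15 called genes of smallest p whose 3 pairs have the same sign, up to 4 called members of each list and of each leading symbol family, and members of the marker, hormone and HD-ZIP IV lists, not all of which are named. Further list members, family members named for going against their family, and the ribosomal product group were chosen after their values were seen. One gene that this rule names is not reported here and is left out of its list's counts. The other 5 libraries of the series were not used.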

Additional observations from a re-analysis of the deposited data

How the results depend on the processing

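No gene called in the main analysis was called in the opposite direction under any of the 11 alternatives. Scaling by library totals called 753 genes in endosperm and 1852 in embryo. The fit without the block for the title prefix called 719 and 622, of which 718 and 618 were also called with it, and a test against a fold of 2 (glmTreat) called 629 and 352. Leaving out 1 pair at a time gave 513 to 1619 genes in endosperm and 417 to 1437 in embryo, lowest without the Col × Ler pair and highest without the LCM-titled pair, and the cause was not tested. DESeq2, median-ratio factors, both other filters and the restriction on maternal share stayed within 1.5 times of both counts (830 to 1487 and 822 to 1403). Of 157 called genes named in the text, 153 kept their call with DESeq2, 127 without the block and 125 against a fold of 2. The 30 that lost it without the block were ABCG12, ABCG25, ABI3, AGO4, AS1, AT5G44310, BZIP67, CHLI1, CLSY2, CLSY4, CYCA1;1, CYP707A3, CYP81D6, ENO1, EPR1, FBA2, GLK2, GSO2, IDN2, LACS8, LCR68, MYB73, PIP2A, PRXR1, RABE1b, REV, RNR1, RPL27, TT10 and AT2G28490, with adjusted p-values from 0.0514 to 0.267. Median-ratio factors ended the calls of CLSY4, ENO1 and IDN2 (adjusted p from 0.051 to 0.0622), and requiring 10 reads in each library of a tissue those of ENO1 and IDN2 (0.0537 and 0.0569). The LCM-titled endosperm library, with 358142 reads, limits the low genes: 9546 genes had a read there, against 13047 and 12823 in the other endosperm libraries.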

Other observations

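The most abundant transcripts give a further view of each tissue, and were picked by their mean share of allele-assigned reads. In endosperm the leading 10 included NSP5 (AT5G48180), a nitrile specifier protein of glucosinolate breakdown, with 2.41%, 3.15% and 2.41% of the reads in endosperm and 0.383%, 0.952% and 0.649% in embryo. All endosperm libraries were above all embryo libraries, with a log2 fold change of 2.53 ± 0.45 (SE, adjusted p = 0.00253). PRXR1 (AT4G21960), a peroxidase, was also among them, with a log2 fold change of 1.42 ± 0.41 (SE, adjusted p = 0.0291) and overlapping shares of reads. Its adjusted p was 0.305 without the Col × Ler pair, 0.108 without the Ler × Col pair and 0.0919 with scaling by library totals only. In embryo the leading 10 included RABE1b (AT4G20360), the elongation factor Tu of plastids, with 1.63%, 1.89% and 1.06% of the reads in embryo and 0.521%, 0.473% and 0.289% in endosperm. It did not overlap between the tissues and was higher in embryo, at a log2 fold change of -1.40 ± 0.40 (SE, adjusted p = 0.0257), with an adjusted p of 0.332 without the Col × Ler pair and 0.176 without the Ler × Col pair. FUG1 (AT1G17220), a plastid translation initiation factor, took 1.04% of embryo reads on average and was not called, at -0.61 (adjusted p = 0.266).

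Gene groups by product text, a grouping made after the values were seen, add some families without a common symbol. Among 32 major facilitator transporters 15 were higher in endosperm and 2 in embryo, and among 64 RING/U-box proteins, mostly ubiquitin ligases, 17 and 2, beside 13.7% and 13.5% of all genes. Of 74 pentatricopeptide repeat proteins, which process organelle RNA, 0 were higher in endosperm and 15 in embryo. Of 16 pectin lyase-like proteins 3 and 8 were called in endosperm and embryo, and of 12 GDSL-type lipases 2 and 6, beside the same 13.7% and 13.5%. Their endosperm shares, 18.75% and 16.7%, are near that of all genes. Of 11 leucine-rich receptor-like kinases 1 and 6 were called. Of 11 genes of the lipid-transfer and 2S albumin superfamily 3 and 6 were called, beside 13.7% and 13.5% of all genes. The median log2 of that superfamily was -2.88.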
